A study of Mus musculus with 12 samples.

Results

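The genes described here are 37 microglia genes measured in astrocyte-enriched cultures of mouse cortex. They are listed by name, as genes known to mark microglia and their macrophage relatives, and the rule that lists them uses no measured value. The choice was nevertheless made with earlier results of these data known. The deposited table held 55573 genes, of which 16761 passed edgeR's filter on low counts and were tested. All 37 members had a row and 37 of 37 passed that filter. The cultures came from the forebrain of newborn C57BL6/J mice. At confluency they were shaken to dislodge other glia and replated as an astrocyte-enriched layer. Every culture received a lentivirus for 5 days. The control virus was pCIG3, in which a CMV promoter drives GFP through an internal ribosome entry site, and the other was pCIG3-ACREB. ACREB is a dominant-negative protein that binds the transcription factor CREB and keeps it off DNA. PBS, or the neuropeptide VIP (vasoactive intestinal peptide) at 0.5 µM, was then applied for 30 min, and cells were harvested after 90 min of recovery. The 4 groups were control virus with PBS, control virus with VIP, ACREB with PBS and ACREB with VIP. Each had 3 libraries with a replicate number from 1 to 3. What a number stands for (a culture, a litter, a day) and whether pups were pooled is not stated. P-values therefore measure the spread between these libraries, which may be technical.

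Microglia are the resident macrophages of brain tissue, and they enter the brain from the yolk sac rather than arising from neural stem cells. They depend on signalling through the receptor CSF1R, they survey tissue with purinergic and chemokine receptors, and they clear debris and synapses through complement, the TREM2 and TYROBP receptor complex and lysosomal proteases. In primary astrocyte cultures they grow on top of the astrocyte layer and are a well-known remainder after shaking.

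Total counts per library ranged from 16571398 to 20529238. Two-sided tests across all genes used edgeR's quasi-likelihood method on the counts, with Benjamini-Hochberg adjustment over the 16761 genes tested in each of 7 contrasts and in the test of the replicate number, and a threshold of 0.05. Levels are in CPM, counts relative to the TMM-scaled library size. A level in log2 CPM is log2 of CPM plus 2. A trend on GC content and transcript length accounted for 45.1% of the departure of control PBS library 2 from the mean of all libraries, for 19.7% in ACREB PBS library 2 and for 0.538% to 16.8% in the remaining 10. The count of members called by replicate number, and that for ACREB over both treatments in the block fit, are also given without those 2 PBS libraries. Other values below include them unless stated.

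The 3 defining markers were present in every library. Cx3cr1, the receptor for the neuronal chemokine fractalkine, ranged from 129.5 to 356 CPM, C1qa, a chain of complement C1q, from 167 to 475 CPM, and Csf1r from 183 to 520 CPM. The 37 members together took 0.275% of all counts in control VIP library 1 (exact Clopper-Pearson 95% interval 0.272 to 0.277%) and 0.710% in ACREB VIP library 3 (0.706 to 0.714%), which were the lowest and highest shares. These intervals cover counting error only. In bulk RNA, fewer cells of a type and less RNA per cell cannot be told apart, so levels below are levels in the culture. For comparison, 12 astrocyte markers summed to 6210 to 7383 CPM, while 19 lymphocyte and granulocyte markers summed to 0.0512 to 1.03 CPM, with 0 of 19 passing the filter and 9, among them Cd3e, Cd8a, S100a9, Ly6g and Mcpt4, at 0 counts in all libraries.

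Per kilobase of exon, the most abundant members over all libraries were cathepsin S (Ctss, 345 CPM per kilobase), lysozyme 2 (Lyz2, 342), C1qa (280.1), C1qb (207) and Tyrobp (177). The transcription factor genes were lower on the same per-length scale, at 11.7 for Spi1, 6.61 for Irf8 and 1.83 for Runx1. The lowest were the lectin gene Siglech (0.875) and the mannose receptor gene Mrc1 (0.284), a marker of macrophages at brain borders. Reads of Lyz2 can be shared with its near-identical neighbour Lyz1. Exons of Csf1r, Cx3cr1, P2ry12, Runx1, Lcp1 and Coro1a overlap exons on the opposite strand (of Hmgxb3, Gm33858, Med12l, Gm26626, Gm15628 with Gm15629, and Bola2). The libraries were strand-specific, but the strand setting of the counting is not given in the sources used here, so counts of these genes are uncertain.

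Promoter windows of the members were read from RefSeq (GRCm38.p6), from 250 bases before to 50 after each annotated start. Whether their letters bear on the differences among libraries described below was not tested. Windows were found for 28 of the 37 members, 33 windows in all. The members without one were C1qa, Csf1r, Gpr34, Itgb2, P2ry6, Spi1, Tmem119, Tyrobp and Unc93b1. The 8 bases GAGGAAGT, a form of the site bound by PU.1 (the product of Spi1, the master regulator of macrophage genes), were searched on both strands. They stood in 5 of the 33 windows (15.2%), those of Ctss, Cd53, C1qc, Apbb1ip and Hpgds, and in 3.2% of all 32851 windows. The palindrome TGACGTCA, the full site for CREB, stood in 0 of the 33 windows and in 1.79% of all windows. At so low a share, 0 of 33 does not set the members apart. A match is a run of letters and not evidence of binding, and the absence of one covers this window alone. The windows of Ctss, Cd53 and C1qc are shown with the match in capitals (here ACTTCCTC, the same site read on the other strand), beside that of Cx3cr1, which held none. They were chosen after the matches were seen. Ctss lies at chr3:95526536-95526835 on the plus strand, Cd53 at chr3:106790100-106790399, C1qc at chr4:136892865-136893164 and Cx3cr1 at chr9:120068247-120068546 on the minus strand.
Ctss: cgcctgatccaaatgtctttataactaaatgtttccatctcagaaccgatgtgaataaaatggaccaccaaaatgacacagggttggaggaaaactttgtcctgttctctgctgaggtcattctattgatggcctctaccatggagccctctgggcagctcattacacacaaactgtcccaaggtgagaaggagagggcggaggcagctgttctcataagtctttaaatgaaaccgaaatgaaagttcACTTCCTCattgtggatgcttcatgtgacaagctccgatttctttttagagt
Cd53: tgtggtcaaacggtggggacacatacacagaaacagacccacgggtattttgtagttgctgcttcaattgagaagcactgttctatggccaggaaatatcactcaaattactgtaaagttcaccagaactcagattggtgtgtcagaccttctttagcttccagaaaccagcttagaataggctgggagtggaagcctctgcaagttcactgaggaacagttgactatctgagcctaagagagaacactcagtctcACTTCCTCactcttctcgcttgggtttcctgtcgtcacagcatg
C1qc: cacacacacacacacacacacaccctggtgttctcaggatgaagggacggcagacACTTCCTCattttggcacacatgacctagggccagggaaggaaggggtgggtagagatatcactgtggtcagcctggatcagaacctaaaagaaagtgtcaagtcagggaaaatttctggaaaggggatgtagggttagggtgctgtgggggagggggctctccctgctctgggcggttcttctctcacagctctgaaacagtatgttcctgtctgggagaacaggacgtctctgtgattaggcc
Cx3cr1: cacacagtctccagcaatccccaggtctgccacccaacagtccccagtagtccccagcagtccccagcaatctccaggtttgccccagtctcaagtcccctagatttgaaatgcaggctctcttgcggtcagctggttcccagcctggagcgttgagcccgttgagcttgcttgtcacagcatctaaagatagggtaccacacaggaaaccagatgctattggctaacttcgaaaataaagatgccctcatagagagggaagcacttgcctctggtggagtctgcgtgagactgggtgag
Counted from the annotated start, the first base of the match lay at -2 in Ctss, at -195 in C1qc and at 7 in Cd53.

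The largest difference among the libraries ran along the replicate number. Averaged over the 37 members, the level was 5.71 ± 0.174 log2 CPM in the libraries numbered 1 (SD, n = 4), 5.91 ± 0.347 in those numbered 2 and 6.50 ± 0.122 in those numbered 3. The 4 libraries numbered 3 lay between 6.39 and 6.62, above all 8 others, which lay between 5.54 and 6.21. In summed CPM of the members, number 1 held 3194 ± 441, number 2 held 4267 ± 1040 and number 3 held 6272 ± 646. Of the variance of this level over the 12 libraries, the number held 73.1%, the virus 22.1%, the treatment 0.0294% and the rest 4.63%. Astrocyte markers summed to 6210 to 6619 CPM in number 3, 6251.5 to 7177 in number 2 and 6823 to 7383 in number 1. Gene by gene, the median log2 fold change of number 3 over number 1 was -0.032 over the 11 tested.

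**Figure D1:**
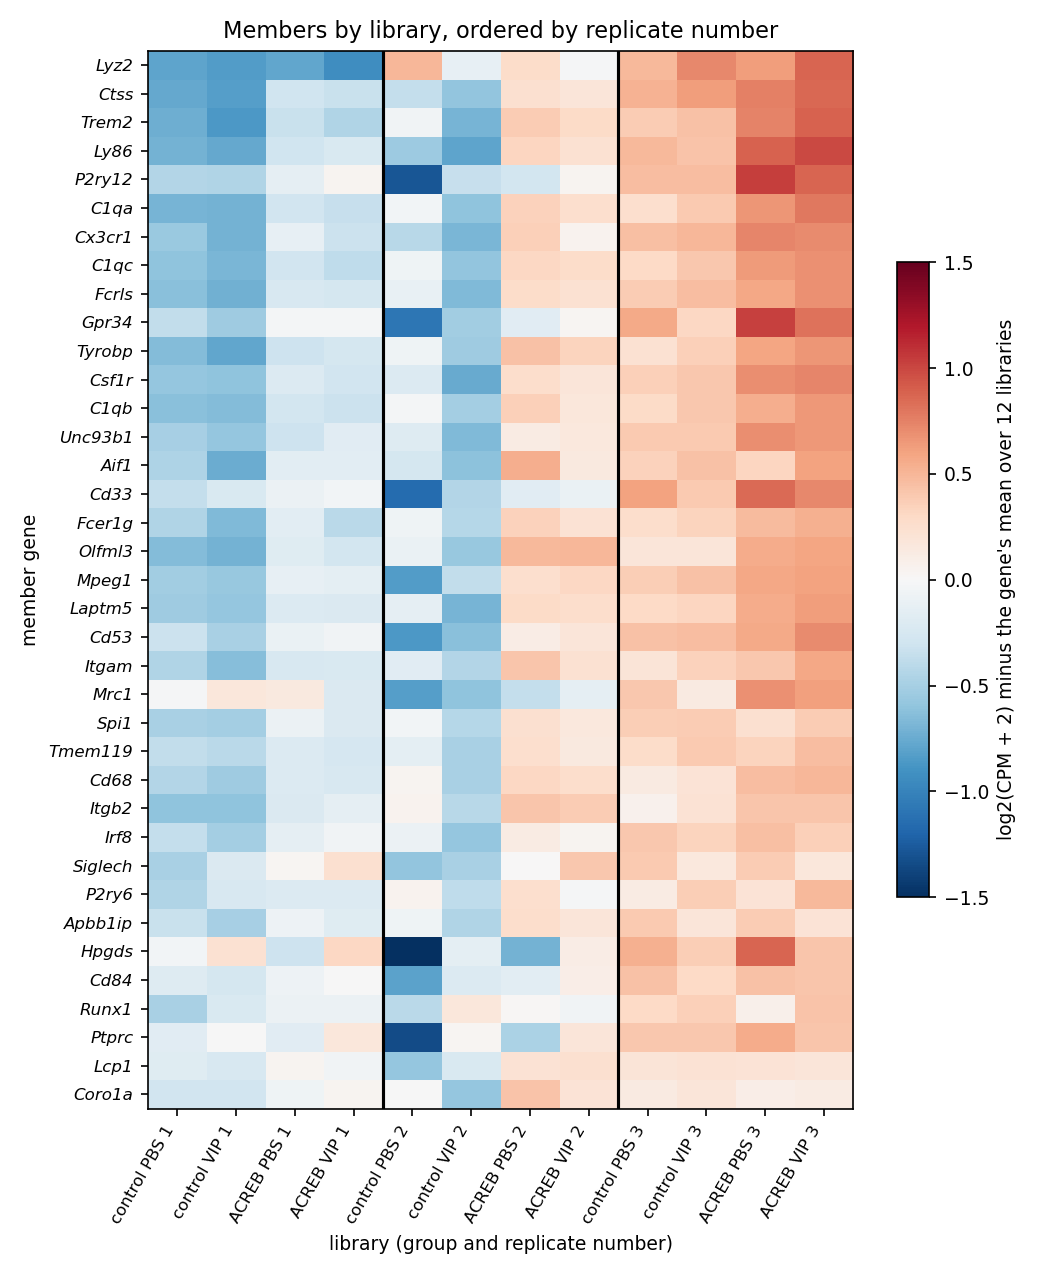
Level of the 37 members (rows, ordered by log2 fold change of number 3 over number 1) in the 12 libraries (columns, grouped by replicate number, with black lines between numbers). Colour is log2(CPM + 2) minus the gene's mean over the libraries: the 4 columns numbered 3 are red or near white for every gene, the control columns numbered 1 are mostly blue, and control PBS 2 has dark blue cells for Hpgds, Ptprc, P2ry12, Cd33 and Gpr34.

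Tested gene by gene, 34 of 37 members differed between replicate numbers, where 15.5% of all genes tested did. In all 34 the number 3 mean was the highest, a pattern that with the call held for 5.01% of all genes. The order was 3 over 2 over 1 in 26 of them and 3 over 1 over 2 in 8. The median log2 fold change of number 3 over number 1 was 0.85 over the members and -0.0038 over all genes tested, and that of number 2 over number 1 was 0.29 and 0.032. For 17 members all 4 libraries numbered 3 lay above the other 8, against 2.34% of all genes. The call held for 28 members in each of the 12 fits that left out 1 library. It was lost in at least 1 of them for Hpgds, P2ry6, Ptprc, Runx1, Mrc1 and Aif1. Leaving out both PBS libraries numbered 2 gave 35 members. The shares of all genes called in these fits with libraries left out are not given here.

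All 5 receptors for growth factor, chemokine and nucleotides differed by number. In libraries 1 to 3 the CPM of Csf1r were 207, 269.7 and 398 for control PBS, 205, 183 and 414 for control VIP, 269, 373 and 505 for ACREB PBS, and 255, 354 and 520.0 for ACREB VIP. The number 3 libraries of each group were the highest, and the 4 of them lay above all others. The mean was 459 ± 62.1 CPM in number 3 and 234 ± 33.1 in number 1, a 1.96-fold ratio (edgeR adjusted p = 0.000954). Values of Cx3cr1 in libraries 1 to 3 were 144, 158 and 291 CPM (control PBS), 129.5, 132 and 302 CPM (control VIP), 194, 274 and 356 CPM (ACREB PBS) and 170.0, 221 and 348 CPM (ACREB VIP). Again the libraries numbered 3 lay above all others, with a 2.03-fold ratio to number 1 (edgeR adjusted p = 0.000601). For P2ry12 control virus gave 13.5, 6.67 and 27.01 CPM with PBS and 13.4, 14.5 and 27.1 CPM with VIP in libraries 1 to 3. ACREB gave 17.1, 15.4 and 41.04 CPM with PBS and 19.7, 19.6 and 36.4 CPM with VIP. P2ry12 encodes the ADP receptor that steers microglial processes to injury, and its number 3 libraries were 2.07-fold above number 1 (edgeR adjusted p = 0.00156). Its lowest value, in control PBS library 2, lay apart from the other control library numbered 2. Gpr34 in libraries 1 to 3 was at 16.7, 9.37 and 33.8 CPM (control PBS) and 14.7, 14.9 and 27.98 CPM (control VIP), and at 21.6, 19.5 and 47.01 CPM (ACREB PBS) and 21.7, 22.6 and 40.6 CPM (ACREB VIP). Gpr34, a receptor gene, was likewise lowest in control PBS library 2, and its libraries numbered 3 lay above all others. P2ry6, a receptor for UDP that triggers phagocytosis, ranged from 12.4 to 25.4 CPM.

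**Figure D2:**
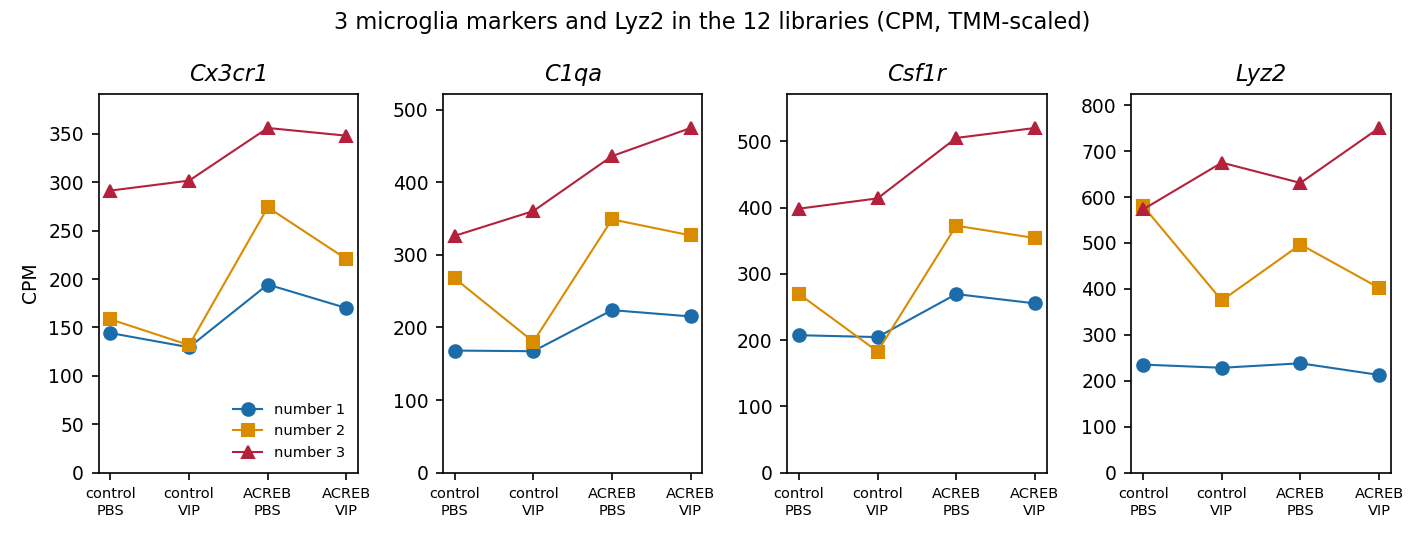
CPM (y axis, from 0) of Cx3cr1, C1qa, Csf1r and Lyz2 in the 4 groups (x axis), 1 point per library, with lines joining libraries of the same number. In the first 3 panels each line is higher with ACREB than with control virus and the number 3 line is on top. The Lyz2 lines for numbers 2 and 3 cross at control PBS and do not step up with ACREB in the same way.

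Among the 7 ITAM adaptors, TREM2 and immunoglobulin-like receptors, 6 differed by number. The CPM of Trem2 in libraries 1 to 3 were 31.95, 52.4 and 71.5 with control virus and PBS, 29.2, 32.8 and 74.8 with control virus and VIP, 42.8, 71.6 and 92.2 with ACREB and PBS, and 39.2, 66.6 and 103 with ACREB and VIP. TREM2 is the lipid receptor that signals through TYROBP, and Trem2 was 2.38-fold higher in number 3 than in number 1 (85.3 ± 14.7 against 35.8 ± 6.30 CPM, edgeR adjusted p = 0.000582). Tyrobp stood at 70.2, 106 and 131 CPM with control virus and PBS (libraries 1 to 3), and at 64.2, 76.6 and 143 CPM with control virus and VIP. ACREB cultures held 89.7, 152 and 169.6 CPM with PBS and 92.6, 141 and 177 CPM with VIP. Tyrobp encodes the adaptor itself and was 1.96-fold higher in number 3 than in number 1 (edgeR adjusted p = 0.000962), and ACREB PBS library 2 reached the level of the libraries numbered 3. In libraries 1 to 3 the CPM of Fcer1g were 43.5, 57.1 and 72.7 for control PBS, 37.3, 44.02 and 76.1 for control VIP, 53.4, 76.5 and 84.5 for ACREB PBS, and 44.9, 69.96 and 87.99 for ACREB VIP. In Fcer1g, the common chain of Fc receptors, ACREB PBS library 2 lay above control PBS library 3. Values of Fcrls in libraries 1 to 3 were 175, 251 and 356 CPM (control PBS), 165, 172 and 375 CPM (control VIP), 231, 329.8 and 408 CPM (ACREB PBS) and 226, 320.5 and 441 CPM (ACREB VIP). In Fcrls, an Fc receptor-like gene, the libraries numbered 3 lay above all others. Fcer1g (1.79-fold), Fcrls (1.98-fold), the sialic acid receptor gene Cd33 (1.83-fold) and the signalling receptor gene Cd84 (1.47-fold) were also higher in number 3. Siglech, at 1.21 to 4.36 CPM, did not pass (edgeR adjusted p = 0.127).

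The 3 chains of complement C1q, whose genes lie side by side on chromosome 4 (from 136880129 to 136898803, GRCm38), moved as a unit. For C1qa control virus gave 168, 268 and 326 CPM with PBS and 167, 180.3 and 360.3 CPM with VIP in libraries 1 to 3. ACREB gave 224, 349 and 436 CPM with PBS and 215, 327 and 475 CPM with VIP. Numbers 1, 2 and 3 averaged 194 ± 30.1, 281 ± 75.3 and 399 ± 68.0 CPM, and ACREB PBS library 2 lay above control PBS library 3. C1qb in libraries 1 to 3 was at 138, 211 and 262 CPM (control PBS) and 136, 151 and 284 CPM (control VIP), and at 177, 275 and 315 CPM (ACREB PBS) and 171, 242 and 337 CPM (ACREB VIP). The CPM of C1qc in libraries 1 to 3 were 146, 213 and 274 with control virus and PBS, 137, 147 and 293 with control virus and VIP, 181, 275 and 346 with ACREB and PBS, and 171, 269 and 359 with ACREB and VIP. The same 2 libraries stood in that order for C1qb and C1qc. The ratio of number 3 to number 1 was 2.06 for C1qa, 1.93 for C1qb and 2.01 for C1qc (edgeR adjusted p = 0.000701, 0.000898 and 0.000727).

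All 6 integrin chains and leukocyte membrane proteins differed by number, by 1.43-fold (Ptprc, the phosphatase CD45) to 1.79-fold (Laptm5, a lysosomal membrane protein) between numbers 3 and 1. The ratio was 1.75 for Itgam and 1.60 for Itgb2, which pair to form a complement receptor, and 1.75 for the tetraspanin gene Cd53. Itgam stood at 24.5, 30.1 and 39.2 CPM with control virus and PBS (libraries 1 to 3), and at 21.3, 24.8 and 43.8 CPM with control virus and VIP. ACREB cultures held 28.6, 46.2 and 46.01 CPM with PBS and 28.9, 40.6 and 52.04 CPM with VIP. In libraries 1 to 3 the CPM of Itgb2 were 41.8, 67.3 and 67.8 for control PBS, 42.1, 47.8 and 75.5 for control VIP, 55.5, 87.2 and 87.2 for ACREB PBS, and 58.8, 84.5 and 87.2 for ACREB VIP. In Itgb2 both ACREB libraries numbered 2 lay above both control libraries numbered 3. Values of Laptm5 in libraries 1 to 3 were 149, 197 and 267 CPM (control PBS), 145, 133 and 272 CPM (control VIP), 188, 265 and 321 CPM (ACREB PBS) and 186, 261 and 335 CPM (ACREB VIP). In Laptm5 the libraries numbered 3 lay above all others. For Tmem119 control virus gave 32.8, 38.6 and 52.5 CPM with PBS and 31.9, 29.98 and 57.2 CPM with VIP in libraries 1 to 3. ACREB gave 36.98, 51.6 and 54.7 CPM with PBS and 35.8, 47.8 and 60.1 CPM with VIP. Tmem119 is a membrane protein gene used to tell microglia from blood-derived macrophages. Its number 3 libraries were 1.63-fold above number 1 (edgeR adjusted p = 0.00744) and did not overlap with any other library.

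The 3 transcription factor genes differed by number at smaller ratios. Spi1 in libraries 1 to 3 was at 21.4, 29.8 and 40.4 CPM (control PBS) and 21.03, 22.2 and 40.5 CPM (control VIP), and at 28.7, 36.8 and 36.8 CPM (ACREB PBS) and 26.2, 34.4 and 40.6 CPM (ACREB VIP). Spi1 was 1.63-fold higher in number 3 than in number 1 (edgeR adjusted p = 0.0102), with ACREB PBS libraries 2 and 3 at almost the same level. The CPM of Irf8 in libraries 1 to 3 were 34.9, 42.5 and 60.4 with control virus and PBS, 31.3, 29.8 and 57.9 with control virus and VIP, 41.3, 49.7 and 62.8 with ACREB and PBS, and 43.5, 46.8 and 58.6 with ACREB and VIP. Irf8, a partner of PU.1 in macrophage development, was 1.59-fold higher in number 3 (edgeR adjusted p = 0.00451), and its libraries numbered 3 lay above all 8 others. Runx1 stood at 14.9, 15.8 and 27.01 CPM with control virus and PBS (libraries 1 to 3), and at 18.1, 24.5 and 28.2 CPM with control virus and VIP. ACREB cultures held 20.2, 21.9 and 22.8 CPM with PBS and 20.3, 20.7 and 29.6 CPM with VIP. Runx1, a factor of blood cell development, was 1.47-fold higher in number 3 (edgeR adjusted p = 0.0262), and its groups overlapped across numbers. Of the 4 actin-associated genes, Aif1 and Apbb1ip passed. In libraries 1 to 3 the CPM of Aif1 were 25.1, 29.2 and 45.5 for control PBS, 20.3, 22.3 and 48.6 for control VIP, 31.4, 52.4 and 44.6 for ACREB PBS, and 31.5, 39.2 and 54.6 for ACREB VIP. Aif1 encodes IBA1, the protein commonly stained to see microglia, and was 1.79-fold higher in number 3 (edgeR adjusted p = 0.0146). Without control VIP library 1 this call was lost. Lcp1 (75.5 to 134 CPM) and Coro1a (45.8 to 93.7 CPM), actin regulators of leukocytes in general, had ratios of 1.24 and 1.22 and did not pass (edgeR adjusted p = 0.135 and 0.277).

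All 7 lysosomal, phagocytic and endosomal genes differed by number, with ratios of number 3 to number 1 from 1.63 (Cd68) to 2.87 (Lyz2). Values of Ctss in libraries 1 to 3 were 253, 336 and 619.8 CPM (control PBS), 242, 287 and 670.4 CPM (control VIP), 350.0, 512 and 731 CPM (ACREB PBS) and 342, 492 and 790.3 CPM (ACREB VIP). Ctss encodes a lysosomal protease and had the smallest adjusted p of all members (0.000213, edgeR), with 703 ± 73.9 CPM in number 3 against 297 ± 57.1 in number 1. For Lyz2 control virus gave 235, 580.3 and 573 CPM with PBS and 228, 375 and 675 CPM with VIP in libraries 1 to 3. ACREB gave 238, 497 and 631 CPM with PBS and 213, 402 and 750.3 CPM with VIP. Lyz2 had the largest ratio, 2.87, at 657 ± 74.7 against 229 ± 11.3 CPM (edgeR adjusted p = 0.0003), and also the largest log2 fold change of number 2 over number 1, at 1.01. Number 2 averaged 464 ± 93.7 CPM, between the other numbers. Ly86 in libraries 1 to 3 was at 60.1, 67.4 and 141 CPM (control PBS) and 57.5, 56.5 and 135 CPM (control VIP), and at 80.7, 125 and 185 CPM (ACREB PBS) and 84.6, 117 and 199.7 CPM (ACREB VIP). Ly86 encodes a partner of the lipopolysaccharide-responsive receptor CD180, and was 2.33-fold higher in number 3 (edgeR adjusted p = 0.00029). The CPM of Unc93b1 in libraries 1 to 3 were 41.5, 51.9 and 78.8 with control virus and PBS, 39.2, 37.1 and 78.8 with control virus and VIP, 47.8, 65.1 and 97.9 with ACREB and PBS, and 53.01, 66.96 and 94.5 with ACREB and VIP. Unc93b1, which carries Toll-like receptors to endosomes, was 1.93-fold higher in number 3 (edgeR adjusted p = 0.000671). Mpeg1 stood at 339, 273 and 630.2 CPM with control virus and PBS (libraries 1 to 3), and at 328, 377 and 665 CPM with control virus and VIP. ACREB cultures held 448, 583 and 728 CPM with PBS and 441, 607 and 744 CPM with VIP. Mpeg1, a perforin-like gene, had its lowest value in control PBS library 2 and a ratio of 1.78. In libraries 1 to 3 the CPM of Cd68 were 36.7, 52.2 and 55.7 for control PBS, 34.4, 35.5 and 58.4 for control VIP, 43.6, 63.2 and 70.3 for ACREB PBS, and 42.5, 60.97 and 72.1 for ACREB VIP. Cd68, a lysosomal glycoprotein gene, had a ratio of 1.63, and both its ACREB libraries numbered 2 lay above both control libraries numbered 3. Values of Mrc1 in libraries 1 to 3 were 1.61, 0.0575 and 2.81 CPM (control PBS), 2.10, 0.4 and 2.01 CPM (control VIP), 2.02, 0.847 and 3.86 CPM (ACREB PBS) and 1.12, 1.31 and 3.57 CPM (ACREB VIP). Mrc1 was near the limit of detection, with 1 count in control PBS library 2, and its number 1 and number 3 libraries averaged 1.71 ± 0.447 and 3.06 ± 0.832 CPM (edgeR adjusted p = 0.0197). Without ACREB PBS library 2, ACREB PBS library 3 or ACREB VIP library 3 this call was lost. The 2 remaining members passed as well, Hpgds, a prostaglandin D synthase gene, at 1.46-fold and Olfml3, a secreted glycoprotein gene, at 1.79-fold. For Olfml3 control virus gave 72.9, 108 and 131 CPM with PBS and 70.2, 77.3 and 132 CPM with VIP in libraries 1 to 3. ACREB gave 102, 163 and 171 CPM with PBS and 94.9, 164 and 175 CPM with VIP. In Olfml3 both ACREB libraries numbered 2 lay above both control libraries numbered 3.

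The second comparison asked whether the microglia genes differed between ACREB and control virus. The mean level over the members was 5.87 ± 0.446 log2 CPM with control virus and PBS (SD, n = 3), 5.84 ± 0.490 with control virus and VIP, 6.22 ± 0.367 with ACREB and PBS and 6.23 ± 0.380 with ACREB and VIP. These group ranges overlapped, because the spread over numbers was wider than the step between viruses. Within a number, each ACREB library lay above the control library of the same number and treatment, in 6 of 6 pairs. With PBS the differences in log2 CPM were 0.28, 0.55 and 0.20 for numbers 1, 2 and 3. With VIP they were 0.32, 0.65 and 0.22. The mean over the 6 pairs was 0.37 ± 0.184 (SD), or 1.29-fold, and both pairs numbered 2 showed the widest steps. The summed CPM of the astrocyte markers was lower with ACREB in 6 of 6 same-numbered pairs (6414 to 7383 with control virus and 6210 to 7119 with ACREB). Gene by gene, the median over both treatments did not follow the sum. Over the 11 tested, the median log2 fold change for ACREB was 0.023 without a term for the replicate number and 0.032 with it. Within single treatments, without that term, it was -0.089 with PBS and 0.084 with VIP. Over both treatments 0 of the 11 passed in either fit, where 0.674% of all genes passed without the term and 3.45% with it. The sum of 10 endothelial markers was higher in 6 of 6 (33.1 to 61.1 and 37.6 to 64.6 CPM). Of the 10, only Flt1, Kdr and Vwf passed the filter, and Cldn5 and Pecam1 were at 0 and 65 counts over all libraries. The median log2 fold change of the 3 tested was 0.034 without a term for the replicate number and 0.078 with it. The part of the astrocyte and endothelial markers in the difference was not tested.

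**Figure D3:**
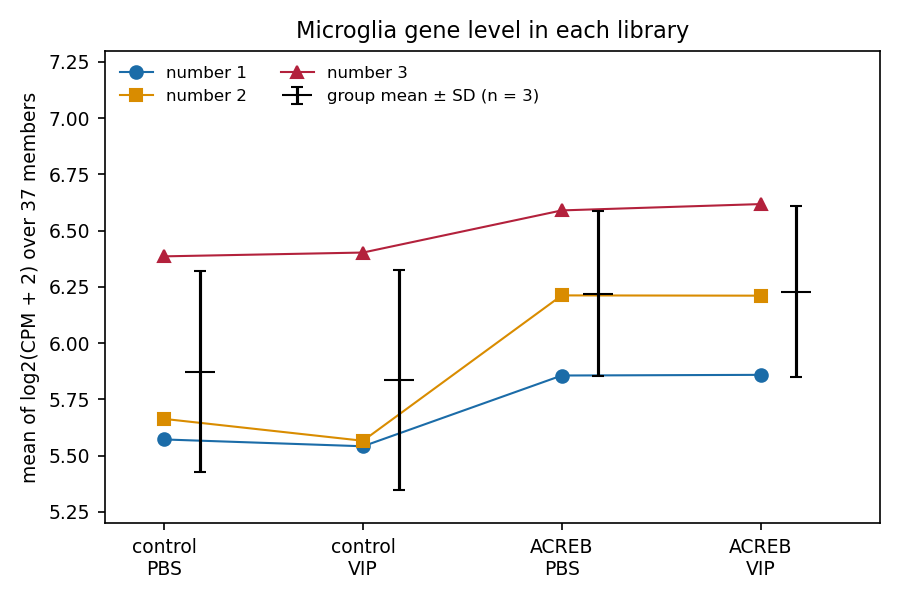
Mean of log2(CPM + 2) over the 37 members (y axis) for the 4 groups (x axis), 1 point per library, with lines joining libraries of the same number and black bars for the group mean ± SD (n = 3). Every line steps up from control virus to ACREB and is flat between PBS and VIP, while number 3 stays above numbers 1 and 2.

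With 1 mean per group and no term for the number, edgeR called 0 of 37 members for ACREB against control virus over both treatments, where 0.674% of all genes passed. Of the members, 2 had an unadjusted p under 0.05, and DESeq2 also called 0. All 37 log2 fold changes were positive, with a median of 0.40 against 0.004 over all genes tested. The libraries of a number deviated together from their group means, so the numbers were taken to pair the samples. With the number as a block, edgeR called 19 members, all higher with ACREB, where 3.45% of all genes passed in either direction and 1.74% passed as higher. With the block and offsets for GC content and length, 27 passed, all higher, where 9.94% of all genes passed and 5.34% passed as higher. Counted without any model, 27 members were higher with ACREB in all 6 same-numbered pairs, against 8.44% of all genes, and 34 were higher in at least 5, against 22.5%. The 3 that were not were Lyz2, Runx1 and Coro1a, each higher in 4 of 6.

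The count of 19 in the block fit depended on single libraries. Leaving out ACREB PBS library 2 or ACREB VIP library 2 left 2 members, leaving out ACREB VIP library 1 left 3, ACREB PBS library 1 left 4, and ACREB VIP library 3 left 5. Without number 1 of either control group 7 passed, without control PBS library 3 there were 9, and without ACREB PBS library 3 there were 10. Leaving out control PBS library 2, or both PBS libraries numbered 2, gave 22. Each of these fits had fewer residual degrees of freedom than the full block fit. The shares of all genes called in them are not given here, so whether these changes were particular to the members cannot be told. Within single treatments the fit without a block called 0 members with PBS (0.0358% of all genes) and 0 with VIP (0.0537%), with 0 members at an unadjusted p under 0.05 in each. The block fit called 0 with PBS (0.221% of all genes) and 1, Ly86, with VIP (0.364%), with 23 and 25 members at an unadjusted p under 0.05. With the block and the offsets 12 passed with PBS (1.84% of all genes) and 16 with VIP (3.62%).

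By role, the 19 members higher with ACREB in the block fit were 3 of 5 receptors (Csf1r, Cx3cr1 and Gpr34), 4 of 7 adaptors and immunoglobulin-like receptors (Tyrobp, Trem2, Fcer1g and Fcrls) and 3 of 3 C1q chains. They also held 3 of 6 membrane proteins (Itgam, Itgb2 and Laptm5), 5 of 7 lysosomal and endosomal genes (Ctss, Cd68, Mpeg1, Unc93b1 and Ly86), and Olfml3. In this fit 0 of 3 transcription factor genes and 0 of 4 actin-associated genes passed. The 27 members that passed with block and offsets were these 19 and 8 others: Irf8 (edgeR adjusted p = 0.0136), the actin-associated genes Aif1 (0.0406) and Coro1a (0.0474), P2ry12 (0.000218), Cd33 (0.0062), Cd84 (0.049), Tmem119 (0.0409) and Cd53 (0.0466). In the block fit without offsets the smallest adjusted p was that of Ly86, at 1.57-fold (log2 0.65, derived SE 0.091, edgeR adjusted p = 0.00506). Its same-numbered pairs went from 60.1 to 80.7, 67.4 to 125 and 141 to 185 CPM with PBS. The next in order of p were Olfml3 at 1.47-fold (log2 0.56, SE 0.091, edgeR adjusted p = 0.0101) and Ctss at 1.38-fold (log2 0.47, SE 0.080, edgeR adjusted p = 0.012). Gpr34 was 1.50-fold higher (0.0267). Cx3cr1 was 1.39-fold higher (edgeR adjusted p = 0.0192), C1qa 1.38-fold (0.0194), Csf1r 1.37-fold (0.0234), Trem2 1.43-fold (0.0208), Tyrobp 1.40-fold (0.0154) and Unc93b1 1.32-fold (0.0278).

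Several canonical markers passed only with the offsets, or in neither block fit. Without offsets P2ry12 had a log2 fold change of 0.57 with an SE of 0.14 (edgeR adjusted p = 0.0503), Cd53 one of 0.48 (0.0504) and Aif1 one of 0.46 (0.101). Tmem119 was at 0.26 (0.196), Spi1 at 0.25 (0.248) and Irf8 at 0.27 (0.131). Siglech had the largest log2 fold change of the members, 0.70, with an SE of 0.24 at under 5 CPM in every library (edgeR adjusted p = 0.159). With offsets Spi1 and Siglech still did not pass (0.0544 and 0.093). Lyz2 stood at the other end with a log2 fold change of 0.0077 and an SE of 0.11, although its ratio between numbers 3 and 1 was the largest of the 37. In its same-numbered pairs with PBS it went from 235 to 238, from 580.3 to 497 and from 573 to 631 CPM.

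**Figure D4:**
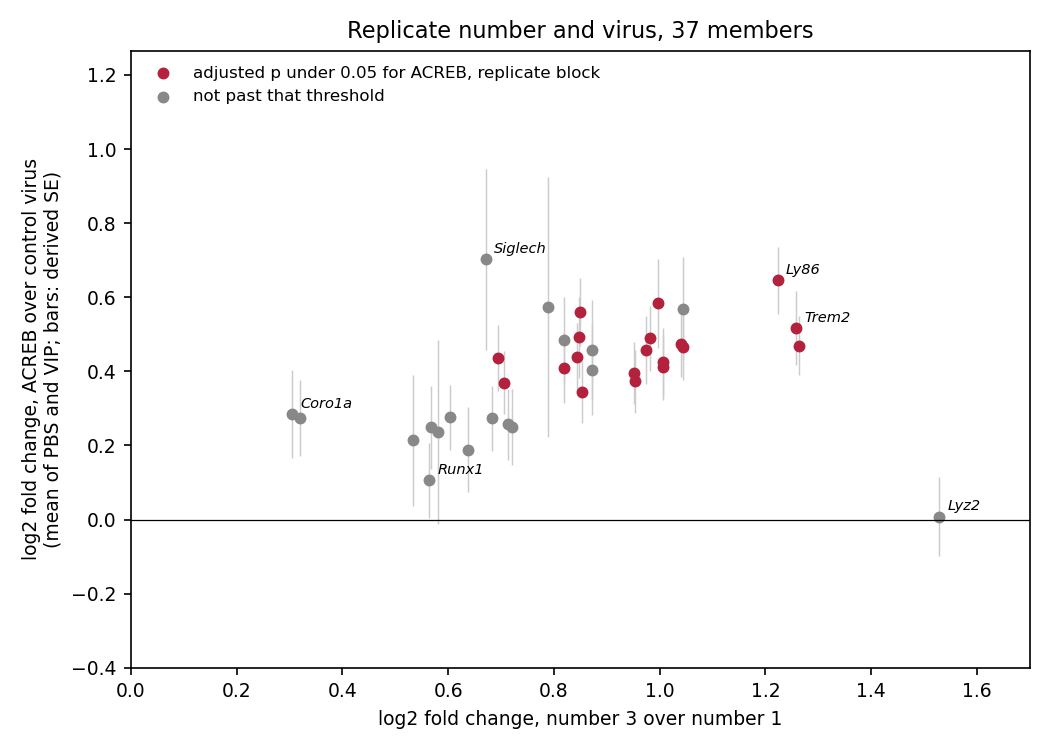
Each point is 1 of the 37 members: log2 fold change of number 3 over number 1 (x axis) against log2 fold change of ACREB over control virus in the fit with the replicate block (y axis, bars are the derived SE), with the 19 members past the threshold in red. Every point but Lyz2 lies above 0.1 on the y axis, and Lyz2 is alone at the lower right, at 1.53 and 0.0077.

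The third comparison asked whether VIP changed the microglia genes. The mean level differed between VIP and PBS by -0.013 ± 0.0455 log2 CPM over the 6 same-numbered pairs (SD), with single pairs from -0.097 to 0.028. No member passed for VIP with control virus (0 of 37, where 0.489% of all genes passed), with ACREB (0 of 37, 0.0119%) or over both viruses (0 of 37, 0.728%). At an unadjusted p under 0.05 edgeR had 0 members in each of these, and DESeq2 called 0. With the block 0 members passed in all 3, where 1.63%, 0.0776% and 2.25% of all genes did, and 1, 0 and 2 members had an unadjusted p under 0.05. Median log2 fold changes of the members were -0.097 with control virus and 0.004 with ACREB, and -0.023 and 0.002 over all genes. In control virus the range ran from -0.27 (Apbb1ip, an adaptor of integrin activation) to 0.38 (Ptprc). Apbb1ip was the 1 member lower with VIP in all 6 pairs, against 4.71% of all genes, and 0 were higher in all 6, against 3.66%. In the interaction of VIP and virus 0 members passed and 0% of all genes did. The 2 members highest with VIP in control virus, Ptprc and Hpgds, both had their lowest value in control PBS library 2, at 12.7 and 3.79 CPM.

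The members followed each other closely over the libraries. The Pearson correlation of a member's log2 CPM with the mean of the other 36 had a median of 0.936 over 12 libraries that share replicate numbers. It was highest for Ly86 (0.994), Ctss (0.989) and Cx3cr1 (0.987), and lowest for Hpgds (0.465), Ptprc (0.543) and Mrc1 (0.625). The departures of single members from the common level were widest in 1 library. In control PBS library 2 the SD of the departures over members was 0.477 on the log2 scale, and it was between 0.124 and 0.282 in the remaining 11. The correlation of these departures with the GC content of the member's transcripts, over 37 genes, was 0.777 in control PBS library 2 and 0.682 in ACREB PBS library 2, and it ran from -0.605 (control PBS library 3) to 0.327 (ACREB VIP library 2) in the other 10.

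The 9 members whose number 2 level was below number 1 were Mrc1, Hpgds, Ptprc, Cd33, P2ry12, Gpr34, Cd84, Siglech and Cd53, with a median GC content of 41.3% against 53.4% for the other 28. Over all members the correlation of GC content with the log2 fold change of number 2 over number 1 was 0.61, and it was 0.08 after offsets for GC content and length. The offsets take out each library's trend on GC content over the genes tested, so this fall is no test of a cause. With those offsets P2ry12 went from -0.22 to 0.16, Gpr34 from -0.20 to 0.20 and Ptprc from -0.33 to 0.31, while Mrc1 (-1.05), Hpgds (-0.27), Siglech (-0.061) and Cd33 (-0.036) stayed negative. Lyz2 remained at 0.99. The higher level in number 3 did not depend on the offsets: with them 35 members differed by number, where 27.6% of all genes did, and all 37 log2 fold changes of number 3 over number 1 were positive with and without them.

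**Figure D5:**
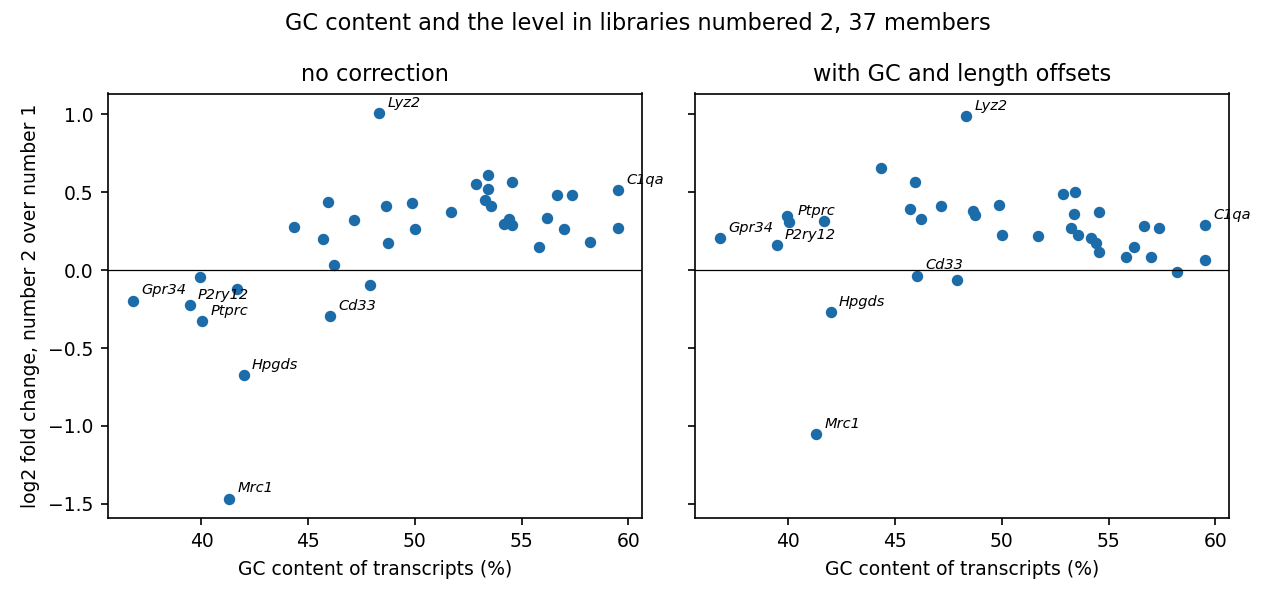
Log2 fold change of number 2 over number 1 (y axis) against the GC content of a member's transcripts in percent (x axis), 37 members, without correction (left) and with GC and length offsets (right). On the left the members of lowest GC content, such as Gpr34 and P2ry12, lie below 0, and on the right most of these lie above it, with Mrc1 and Hpgds still below.

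Further genes of microglia and macrophages, 40 genes outside the members, gave the same picture by number. Of the 40, 31 differed by number and all 31 were highest in number 3, with a median log2 fold change of number 3 over number 1 of 0.75. The complement receptor gene C3ar1 averaged 41.9, 44.6 and 76.2 CPM in numbers 1, 2 and 3 (edgeR adjusted p = 0.000412), the signalling adaptor gene Pik3ap1 29.7, 40.8 and 58.3 CPM (0.000512) and the cytokine receptor gene Csf3r 10.7, 14.1 and 24.6 CPM (0.000574). For ACREB over both treatments 0 of 40 passed without the block. In the block fit 8 of 40 were higher with ACREB and 0 lower, led by the transporter gene Slco2b1 (log2 0.65, edgeR adjusted p = 0.00737), the GM-CSF receptor gene Csf2ra (0.67, 0.0101) and Csf3r (0.60, 0.0114). Sall1, a transcription factor gene of microglia that neural progenitors also express, had no such order, at 101, 83.8 and 89.6 CPM in numbers 1, 2 and 3.

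Of 10 markers of border-associated macrophages, 6 were tested. The membrane protein gene Ms4a7 (17.5, 20.7 and 35.9 CPM in numbers 1, 2 and 3) and the scavenger receptor gene Stab1 (91.4, 108 and 148 CPM) differed by number (edgeR adjusted p = 0.000503 and 0.005). Lyve1 was at 0 counts, Cd163 had 5 and Clec10a 2 counts in all libraries together. Without the block 0 of 6 passed for ACREB over both treatments. In the block fit 1 of the 6, the chemokine gene Pf4, was higher with ACREB (log2 0.53, edgeR adjusted p = 0.0427).

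Among 17 genes known to rise in activated microglia, 16 were tested and 10 differed by number, 6 of them highest in number 3. Several are also expressed by astrocytes, such as Apoe, which averaged 3654, 4438 and 6956 CPM in numbers 1, 2 and 3 (edgeR adjusted p = 0.000574). Cst7, an inhibitor of lysosomal proteases, averaged 12.1, 26.8 and 27.1 CPM (0.000213), and Spp1, the secreted protein osteopontin, 86.4, 173 and 117 CPM (0.00327). By virus, 1 of 16 passed without a block and 6 with it, 4 higher and 2 lower with ACREB. Cd74 in libraries 1 to 3 was at 2.75, 5.69 and 5.78 CPM (control PBS) and 3.33, 2.80 and 4.70 CPM (control VIP), and at 12.3, 24.3 and 14.6 CPM (ACREB PBS) and 12.5, 18.7 and 13.6 CPM (ACREB VIP). Cd74, the invariant chain of MHC class II, was higher in every ACREB library than in every control library (log2 1.95, SE 0.24, edgeR adjusted p = 0.00402; 1.94 and 0.000721 with the block). The CPM of Gpnmb in libraries 1 to 3 were 28.7, 111 and 46.4 with control virus and PBS, 24.2, 73.2 and 62.5 with control virus and VIP, 17.2, 28.4 and 13.6 with ACREB and PBS, and 15.6, 25.5 and 18.1 with ACREB and VIP. Gpnmb, a lysosomal glycoprotein gene, was lower with ACREB in 6 of 6 pairs (log2 -1.42, SE 0.20, edgeR adjusted p = 0.00507 with the block, and 0.0837 without), the opposite direction to the members. Cst7 was higher with ACREB in the block fit (log2 0.72, SE 0.083, edgeR adjusted p = 0.00185). Il1b stood at 0.831, 0.862 and 1.86 CPM with control virus and PBS (libraries 1 to 3), and at 3.38, 1.30 and 6.02 CPM with control virus and VIP. ACREB cultures held 0.818, 1.39 and 2.58 CPM with PBS and 3.65, 3.65 and 11.2 CPM with VIP. The cytokine gene Il1b was the 1 gene of this list past the threshold for VIP over both viruses in the block fit (log2 1.72, SE 0.22, edgeR adjusted p = 0.00229; 0.148 without the block). It was higher with VIP in 6 of 6 pairs and highest in both VIP libraries numbered 3.

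Ligands of microglial receptors were a further list, and the cells that made them were not tested. Of its 8 genes, 6 differed by number, 1 of them highest in number 3 (Tgfb1, at 22.6, 30.4 and 33.3 CPM in numbers 1, 2 and 3). The CSF1R ligand genes Csf1 and Il34 averaged 393, 453 and 328 CPM and 2.71, 6.35 and 2.81 CPM in numbers 1, 2 and 3 (edgeR adjusted p = 0.00987 and 0.00409). Cx3cl1, the ligand of CX3CR1, averaged 105, 157 and 133 CPM (0.00925). In the 7 virus, treatment and interaction contrasts 0 of the 8 ligands passed, with or without the block. Their summed CPM was lower with ACREB in 6 of 6 same-numbered pairs. The median log2 fold change of the 8 genes for ACREB over both treatments was positive, at 0.063 without the block and 0.062 with it.

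Among 13879 genes compared outside the members and with a gene symbol that is not a placeholder, the 10 whose log2 CPM correlated best with the members' mean over the 12 libraries were Inpp5d (0.992), Csf3r (0.987), Myo1f (0.983), Il10ra (0.982), Gpr183 (0.982), Tbxas1 (0.981), Ptpn18 (0.980), Arhgap27 (0.979), Fcgr1 (0.977) and Bin2 (0.976). Inpp5d, Csf3r, Gpr183, Fcgr1 and Bin2 stood on the list of further microglia and macrophage genes. All 10 were highest in number 3, as the members' mean was, an order that choosing by correlation with that mean favours. Inpp5d, a lipid phosphatase of immune cells, averaged 55.2, 66.7 and 96.3 CPM in numbers 1, 2 and 3, and Il10ra, the interleukin-10 receptor chain, 15.8, 18.3 and 30.6 CPM.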

How the data were processed

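RNA was sequenced by a strand-specific polyA protocol in 12 libraries, 3 in each of 4 groups, per the labels. The deposited table holds raw counts by Ensembl gene, made by the authors, with 1 column per library. For GRCm38 (mm10) the submitters' processing notes name STAR 2.7.1a, Trimmomatic 0.39, HTSeq 0.11.2, edgeR and R 3.6.1. The annotation release and the strand setting were not given in the sources used here.

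Tests were run with edgeR 4.0.16 in R 4.3.3 (filterByExpr, TMM, 1 mean per group over all 12 libraries, quasi-likelihood tests, residual df 8), with limma 3.58.1 loaded, and DESeq2 1.42.0 as an alternative. Replicate number was tested by an F test of both its terms beside the group. P-values were adjusted by Benjamini-Hochberg over all genes tested. A derived SE is the size of the log2 fold change over the square root of F. Depth was 16571398 to 20529238 counts per library. The scripts were tested on simulated data. Gene positions and GC content come from GENCODE for GRCm38.

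Members and lists were chosen with earlier results of these data known. Values in every library are given for Cx3cr1, C1qa, Csf1r, P2ry12, Tmem119, Trem2, Tyrobp, Aif1, Ctss, Spi1, Irf8, Runx1, Mrc1, Lyz2, Olfml3 and Unc93b1, for members past the threshold in a virus or treatment contrast with or without the block, and for the 5 with the smallest p for the number. Each other list gives up to 3 called genes, and the 10 best-correlated genes outside the members are named. Values in every library for Cd74, Gpnmb and Il1b, and the values of Sall1, were added after these were seen.

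The replicate numbers were checked for pairing on edgeR log2 CPM with a prior count of 2. Deviations from group means of same-numbered libraries correlated at 0.132 to 0.679 in all 18 pairs, and at 0.118 to 0.679 without microglia and macrophage genes. On log2(CPM + 2) the lowest of the 18 was 0.0864. The numbers were taken to pair the samples, and the block fit (residual df 6) stands beside the other where it changes a count of members called.

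Alternatives were the block, GC and length offsets (splines with 5 df), both together, other size factors, no filter, DESeq2, only the libraries compared, and leaving out each library. Leaving out libraries in the block fit, and both PBS libraries numbered 2, was added after the data were seen.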

Additional observations from a re-analysis of the deposited data

How the results depend on the processing

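The replicate block changed 2 counts of members called for ACREB against control virus, to 19 over both treatments and to 1 with VIP, from 0 in each, and it changed no other count of members called. With the block and GC and length offsets together the counts were 12 with PBS, 16 with VIP and 27 over both. In the block fit over both treatments, leaving out 1 library gave 2 to 22 members, where the count without 1 library rests on fewer residual degrees of freedom. The shares of all genes in those fits are not given here. The fits for VIP and the interaction gave 0 members under each alternative run. The test of the number gave 29 to 35 under leaving out 1 library, 32 with DESeq2's size factors in edgeR and 35 with no filter. For these alternatives the share of all genes called is not given here. For ACREB over both treatments, Lyz2 changed sign, to -0.084 with the offsets and -0.11 with the block and offsets, and its value ran from -0.25 to 0.29 when 1 library was left out; Runx1 ran from -0.017 to 0.25. Neither passed the threshold in those fits, and the cause was not tested. Depth limits Mrc1 and Siglech, at under 5 CPM in every library.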

Other observations

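Markers of other cells of the culture did not share 1 order over the replicate numbers. Of 11 astrocyte markers tested, 7 differed by number and 1 of those was highest in number 3, with a median log2 fold change of number 3 over number 1 of -0.032. Gfap averaged 1457, 1298 and 1139.6 CPM in numbers 1, 2 and 3. Of 12 oligodendrocyte lineage markers, 8 differed and 3 were highest in number 3, among them Gpr17, a receptor gene of committed precursors (2.03, 2.09 and 5.30 CPM). Of 10 neuron markers tested, 3 differed, and Tubb3 was highest in number 2 (19.4, 47.2 and 19.4 CPM). Of 10 fibroblast and mural markers tested, 8 differed and 1 was highest in number 3, and of 6 ependymal markers tested 4 differed and 0 were.

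Of 10 endothelial markers, 3 were tested. The VEGF receptor genes Flt1 (8.21, 10.2 and 14.2 CPM in numbers 1, 2 and 3) and Kdr (23.4, 16.1 and 37.9 CPM) differed by number and were highest in number 3, while the endothelial genes Cldn5 and Pecam1 were at 0 and 65 counts over all libraries.

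For VIP over both viruses, the fit without a block called 1 marker of these lists, the neuron marker Gad1 (log2 1.01, edgeR adjusted p = 0.0218). With the replicate block, 1 astrocyte marker (Fgfr3, log2 -0.33), 1 oligodendrocyte lineage marker (Olig2, -0.56) and 1 mural marker (Pdgfrb, -0.41) were lower with VIP, and Gad1 was higher (1.00).

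For ACREB over both treatments 0 markers of these lists passed without the block, and with it 0 of 11 astrocyte markers did. With the block 2 of 6 ependymal markers, Ccdc153 (log2 0.60) and Rsph1 (0.41), and 1 of 3 endothelial markers, Flt1 (0.56), were higher with ACREB, as the microglia genes were. The collagen genes Col1a1 (-0.56) and Col1a2 (-0.48), 2 of 10 fibroblast and mural markers, were lower, as was Mag (-0.67), 1 of 12 oligodendrocyte lineage markers. Of 10 neuron markers Stmn2 was higher (0.35) and Tubb3 lower (-0.64). Their part in the difference of the microglia genes was not tested.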
